A study of Homo sapiens with 4 samples.

Results

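The integrated stress response genes described here are the transcription factors ATF4, CEBPG, CEBPB, ATF3, ATF5 and DDIT3 and the effectors TRIB3, CHAC1, PPP1R15A and VLDLR, 10 genes of 19775 with a probe set of their own on the array. They were taken as every probe set that names one of these genes alone, which gave 18 probe sets, 17 of them at the level minimum used here, a mean log2 intensity of 5. The genes were selected on what they are known to do and with their siRNA differences and levels on these arrays already known, so their values are a description, and counts over them support nothing about the response as a whole. RNA was measured on 4 Affymetrix expression arrays, 1 per group, from 2 established human melanoma lines. The groups were A375 with negative control siRNA, A375 with siRNA for ZIC5, SK-MEL-28 with negative control siRNA and SK-MEL-28 with siRNA for ZIC5, all collected 48 h after transfection. ZIC5 is a zinc-finger transcription factor, and all arms share a siRNA transfection, with no untransfected cells among the samples. The labels name no second siRNA for ZIC5, so an effect of the sequence of the siRNA and an effect of less ZIC5 cannot be told apart.

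In the integrated stress response, kinases that sense amino acid shortage, unfolded protein, haem shortage or double-stranded RNA phosphorylate the translation factor eIF2. General protein synthesis then slows, while the ATF4 messenger is translated more because of short upstream reading frames that otherwise hold ribosomes back. ATF4 protein pairs with C/EBP family members and switches on genes for amino acid supply, further stress factors such as DDIT3 and ATF3, and the feedback subunit PPP1R15A. Much of this control is on ATF4 translation, which an array of transcripts does not measure.

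With 1 array in a group, no siRNA difference inside a line can be checked against replicates. A difference here is the log2 intensity of the ZIC5 siRNA array less that of the control array of the same line, and intensities of a line are given control first. Values are for the probe set of each gene with the highest mean level unless another is named. The single ZIC5 probe set read 16.8 and 14.1 on the A375 arrays and 21.4 and 15.5 on those of SK-MEL-28, below the level minimum, so these arrays give no check on the knockdown. Of 8 melanocyte lineage markers measured, all reached the level minimum, an intensity of 32, in their mean over the 4 arrays. Their summed intensity was 1860 to 2445 on the A375 arrays but 43820 to 47070 on those of SK-MEL-28. In A375 the pigment cell markers PMEL, MLANA, TYR and TYRP1 lay between 7.51 and 35.9. MLANA and TYRP1 were under 32 on both A375 arrays and passed only through SK-MEL-28. SOX10, a transcription factor of the lineage, was 895 and 1660 in A375. Of the markers of other cell types, 1 of 3 leukocyte, 2 of 3 endothelial, 2 of 3 fibroblast and 4 of 4 keratinocyte markers were at the level minimum. Their summed intensity over the 4 arrays was 80.5 to 93.7 (leukocyte), 108 to 131 (endothelial), 79.2 to 945 (fibroblast) and 150 to 467 (keratinocyte). PTPRC (leukocyte) and CDH5 (endothelial) were lowest, at 5.44 to 7.70 and 7.75 to 10.3. The other leukocyte markers CD3E and CD14 read 54.0 to 59.8 and 14.2 to 30.2. The other endothelial markers PECAM1 and VWF read 56.9 to 88.3 and 35.1 to 47.3. KRT14 was 358 and 320 on the A375 arrays. LUM, a matrix gene listed as a fibroblast marker, read 162 and 14.9 for A375, then 875 and 498 for SK-MEL-28, so it moved with the siRNA, and its part in the results was not tested. In RNA from a whole culture, more transcript per cell and more cells that hold the transcript cannot be told apart.

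ATF4, the transcription factor at the centre of the response, was higher with ZIC5 siRNA by almost the same amount in both lines. Its intensity on the A375 arrays was 3284 (control) and 6583 (ZIC5 siRNA), and SK-MEL-28 gave 2667 and 5731. Both ZIC5 siRNA arrays were thus above both control arrays, and the log2 differences were 1.003 and 1.10, or 2.005-fold and 2.15-fold. The A375 difference stood just past the 2-fold size rule and was 0.98 after quantile normalization. In the additive limma fit over both lines the mean ATF4 difference was 1.05 (SE 0.10, 2 lines), and the limma p adjusted over all genes was 0.268. The single ATF4 probe set lay at percentile 99.1 of all probe sets by mean level.

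CEBPG, a small C/EBP protein that lacks an activation domain of its own and pairs with ATF4, was higher in both lines on both of its probe sets. Its brighter probe set read 155 and 619 for A375, then 175 and 376 for SK-MEL-28. The control arrays of the lines were close to each other, and the differences were 1.998 and 1.10. The other CEBPG probe set read 225 and 368 for A375, then 149 and 214 for SK-MEL-28, with differences of 0.71 and 0.52. The direction was shared by the 2 probe sets, but the size in A375 was 3.99-fold on one and 1.64-fold on the other.

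CEBPB, the C/EBP family activator that also partners ATF4, showed little difference. It read 1517 and 2160 in A375, which differ by 0.51. SK-MEL-28 read 3157 and 3114, which differ by -0.02. Both SK-MEL-28 arrays were above both A375 arrays.

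ATF3, a stress-induced factor of the same leucine zipper class that often acts as a repressor, had its largest difference in A375. Its brightest probe set read 104 and 591 for A375, 5.66-fold higher, then 43.7 and 68.1 for SK-MEL-28, 1.56-fold higher. The A375 array with ZIC5 siRNA stood far above the other 3, and both SK-MEL-28 values were below the A375 control. The other ATF3 probe sets gave smaller values or none. One differed by 0.91 in A375 but by 0 in SK-MEL-28, where both arrays were listed at 65.1. The last, below the level minimum, lay between 27.8 and 31.0 on all arrays and differed by -0.01 and -0.14. The mean of the ATF3 probe sets differed by 1.13 for A375 against 0.17 for SK-MEL-28, so the size of the ATF3 difference depends on the probe set used.

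ATF5, a factor close to ATF4 whose messenger carries similar upstream reading frames, was the one member lower in both lines. Its brightest probe set read 186 and 136 for A375, then 194 and 145 for SK-MEL-28, with differences of -0.45 and -0.42. Both ZIC5 siRNA arrays were below both control arrays, and the lines were nearly level with each other under each transfection. A second probe set read 126 and 83.2 for A375, then 130 and 103 for SK-MEL-28, with the same order of arrays and differences of -0.60 and -0.34. The other two ATF5 probe sets were nearly flat, with A375 differences of -0.23 and -0.07 and SK-MEL-28 differences of -0.08 and 0.07. No ATF5 probe set reached a 2-fold difference in either line. The limma mean of the brightest was -0.43 (SE 0.17, 2 lines, limma adjusted p 0.398).

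DDIT3, also called CHOP, the factor through which lasting stress favours cell death, had the second largest difference of the 10 genes in A375. Its one probe set read 214 and 1497 for A375, 6.98-fold higher, then 261 and 431 for SK-MEL-28, 1.65-fold higher. The control arrays were close, and the ZIC5 siRNA arrays were 3.47-fold apart. The siRNA differences of 2.80 and 0.72 placed DDIT3 at rank 22 from the top of 13794 genes in A375 and at rank 336 in SK-MEL-28.

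**Figure D1:**
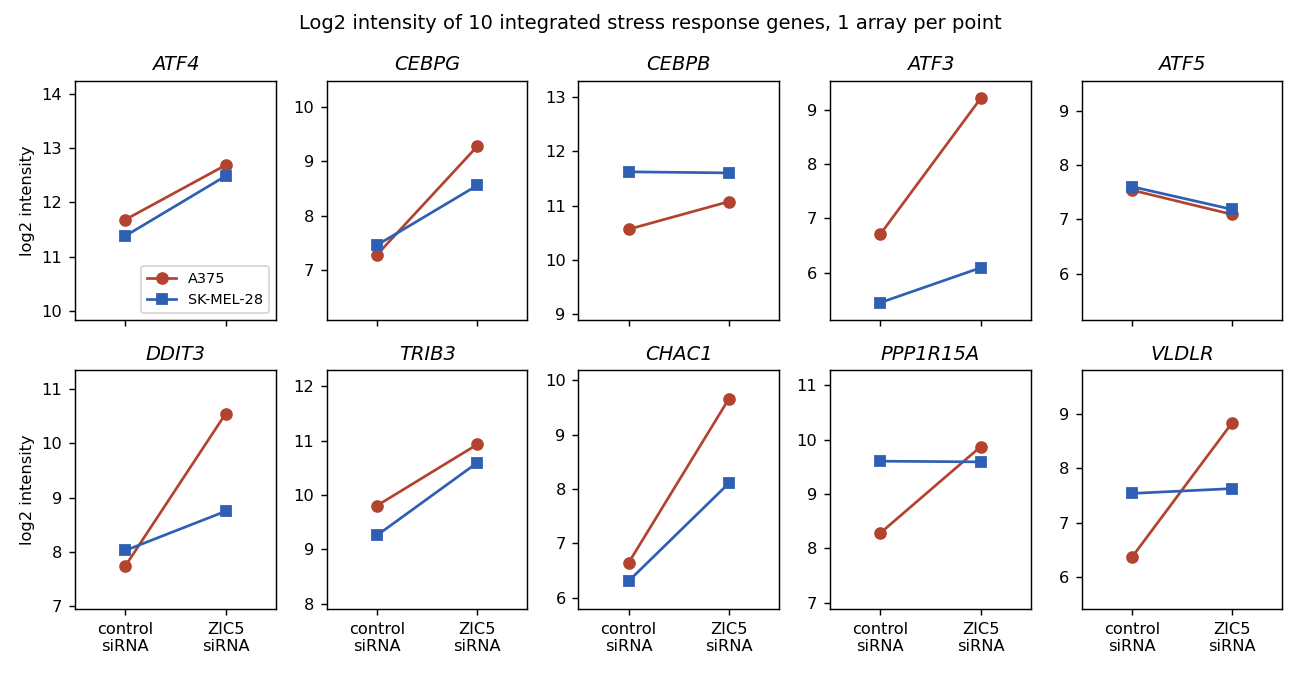
Log2 intensity (vertical axis, with the same span in every panel) of the 10 genes with control and ZIC5 siRNA (horizontal axis) in A375 (circles) and SK-MEL-28 (squares); each point is 1 array and no error can be drawn. ATF4 and TRIB3 run nearly parallel in the lines, the DDIT3, PPP1R15A and VLDLR lines are far steeper for A375 than for SK-MEL-28, and ATF5 slopes down in both.

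TRIB3, a pseudokinase that binds AKT and ATF4 and damps both, gave similar values on both of its probe sets. The brighter read 893 and 1950 for A375, then 611 and 1545 for SK-MEL-28, with differences of 1.13 and 1.34. The other read 145 and 346 for A375, then 118 and 286 for SK-MEL-28, with differences of 1.25 and 1.27. On both, the ZIC5 siRNA arrays were above the control arrays by more than 2-fold in each line. The limma mean was 1.23 (SE 0.15, 2 lines, limma adjusted p 0.268).

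CHAC1, the cytosolic enzyme that breaks down glutathione, had the largest difference of the 10 genes in each line. Its intensity was 100.0 and 811 for A375, 8.11-fold higher, then 79.2 and 276 for SK-MEL-28, 3.49-fold higher. The control arrays were the 2 lowest values, and the A375 array with ZIC5 siRNA was well above all others. CHAC1 stood at rank 16 of 13794 genes in A375 and rank 9 in SK-MEL-28. The limma mean difference was 2.41 (SE 0.36, 2 lines, limma adjusted p 0.268).

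PPP1R15A, or GADD34, brings a phosphatase to eIF2 and so ends the translation block. It read 311 and 936 for A375, then 778 and 771 for SK-MEL-28, so the A375 control was low and the other 3 arrays were similar. The second PPP1R15A probe set, with 148 and 460 for A375, then 405 and 427 for SK-MEL-28, also had the A375 control lowest and the other 3 arrays close together. The differences were 1.59 and -0.01 on the first and 1.64 and 0.08 on the second. VLDLR, a lipoprotein receptor gene that ATF4 can switch on, read 82.4 and 459 for A375, then 186 and 198 for SK-MEL-28. The A375 control was again the lowest, but the A375 array with ZIC5 siRNA was above both SK-MEL-28 arrays for VLDLR. Its A375 difference was 2.48 and its SK-MEL-28 difference 0.09.

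**Figure D2:**
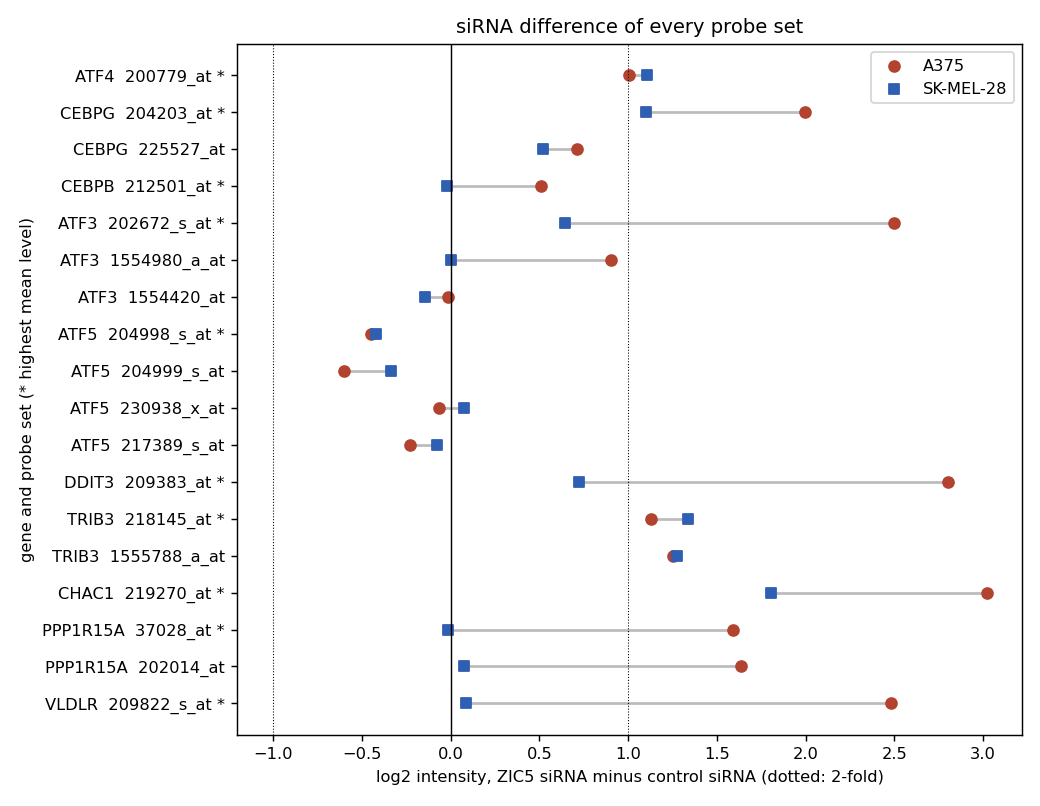
Log2 difference between ZIC5 and control siRNA (horizontal axis) for all 18 probe sets of the 10 genes (vertical axis), in A375 (circles) and SK-MEL-28 (squares), 1 array per group. The probe sets of TRIB3 and of PPP1R15A lie close together, those of CEBPG and ATF3 do not, and the ATF5 probe sets lie between -0.60 and 0.07.

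Promoter windows of the 10 genes, 250 bases before to 50 bases after each annotated start, were read from RefSeq (build GRCh38.p14), which lists 19 such windows for them. They were searched on both strands for the C/EBP-ATF composite element, TGATGNAAN, the site that ATF4 and C/EBP dimers bind. The cyclic AMP response element, TGACGTCA, and the endoplasmic reticulum stress element were searched for as well. The stretches below hold the matches and are shown because some members with positive differences hold these letters near a start and others do not. Capitals mark the match, which is the composite element in CHAC1, CEBPG and ATF3 and the cyclic AMP response element in PPP1R15A. All stretches are on the + strand, and the CHAC1 match is read on the opposite strand.
CHAC1, chr15:40953221-40953340: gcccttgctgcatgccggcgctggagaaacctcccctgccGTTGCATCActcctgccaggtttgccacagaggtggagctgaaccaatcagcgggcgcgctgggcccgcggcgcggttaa
CEBPG, chr19:33373993-33374112: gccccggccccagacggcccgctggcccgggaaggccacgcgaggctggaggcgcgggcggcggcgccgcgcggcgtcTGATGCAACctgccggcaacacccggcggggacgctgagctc
ATF3, chr1:212565160-212565279: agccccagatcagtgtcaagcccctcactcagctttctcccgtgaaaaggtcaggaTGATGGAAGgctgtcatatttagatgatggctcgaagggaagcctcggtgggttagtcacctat
PPP1R15A, chr19:48872301-48872420: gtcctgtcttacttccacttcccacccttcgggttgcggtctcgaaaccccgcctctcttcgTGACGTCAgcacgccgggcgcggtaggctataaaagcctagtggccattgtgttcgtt

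The composite element stood 210 bases before the CHAC1 start, 42 bases before the second of the CEBPG starts and 191 bases before the first of the ATF3 starts. These 3 of 10 genes compare with 4.45% of the 27305 genes in the promoter table, or 3.61% of its 35116 windows. The 10 genes had 19 windows, with more than 1 in 7 genes, and a gene with more windows has more room for a match. CHAC1 and CEBPG held the same letters, TGATGCAAC on one strand or the other, which 0.275% of genes hold within these windows. This narrower count was made after the matches were seen. The PPP1R15A stretch shows a full cyclic AMP response element, TGACGTCA, the palindrome that ATF and CREB proteins bind, 58 bases before the start, and 2.25% of genes hold one. The endoplasmic reticulum stress element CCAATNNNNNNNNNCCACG, bound by ATF6 with NF-Y, was in none of the members' windows, against 0.0916% of genes. A match is a description of letters, and no match in ATF4, ATF5, CEBPB, DDIT3, TRIB3 or VLDLR says only that the letters are not in these windows.

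By the 2-fold size rule, 8 of the 10 genes were higher in A375, where 3.89% of all 13794 genes analysed were. In SK-MEL-28 4 were, ATF4, CEBPG, TRIB3 and CHAC1, where 0.776% of genes were, and the same 4 passed in both lines, against 0.312%. As the genes were chosen with these contrasts known, nothing is read from the shares. No member was 2-fold lower in either line, where 5.05% (A375) and 2.12% (SK-MEL-28) of genes were. The members' median difference was 1.79 for A375 against 0.68 for SK-MEL-28, beside medians of -0.01 and 0.00 over all genes analysed. ATF4 and TRIB3 had slightly larger differences in SK-MEL-28, by 0.10 and 0.21, and ATF5 differed between the lines by 0.03. In 5 members, VLDLR, DDIT3, ATF3, PPP1R15A and CHAC1, the A375 difference was larger by at least 1 log2 unit (2.39 for VLDLR, 2.08 for DDIT3 and 1.22 for CHAC1), as in 3.58% of genes. It was smaller by that much in none, as in 3.20% of genes. With 1 array per group the difference between the lines' responses could not be tested.

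The limma fit over both lines, with Benjamini-Hochberg adjustment over all 13794 genes, called 0 genes for the siRNA effect at an adjusted p under 0.05, so none of the 10 passed. At an unadjusted p under 0.05 it gave 815 higher genes (5.91%) and 1009 lower genes (7.31%). ATF4, TRIB3, CHAC1, CEBPG, DDIT3 and ATF3 were among the higher. The SE was 0.10 for ATF4 but 0.56 for DDIT3 and 0.63 for VLDLR, since the fit takes disagreement between the lines as error. The labels do not say whether the arrays came from separate cultures. The p-values rest on the disagreement between the lines and on a variance estimated over all genes, not on replicates within a line. Technical spread and a true difference between the lines' responses cannot be told apart in that disagreement.

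The lines also differed in these genes under control siRNA. On the control arrays PPP1R15A was 2.50-fold, VLDLR 2.26-fold and CEBPB 2.08-fold higher in SK-MEL-28 than in A375, 3 genes past 2-fold beside 11.2% of all genes. These are also the 3 genes with siRNA differences under 0.1 in size in SK-MEL-28, and both quantities use the SK-MEL-28 control array. ATF3 was 2.39-fold lower in SK-MEL-28, beside 11.0% of genes, but its other probe sets differed by only -0.18 and -0.02 there. ATF4, ATF5, DDIT3, CEBPG and CHAC1 lay within 0.34 log2 units between the control arrays on their brightest probe sets, the other CEBPG probe set differed by -0.59, and TRIB3 was lower in SK-MEL-28 by a difference of -0.55.

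On the ZIC5 siRNA arrays the order changed. No member was 2-fold higher in SK-MEL-28, where 11.8% of genes were, and ATF3, DDIT3, CHAC1 and VLDLR were at least 2-fold lower, where 12.0% of genes were. ATF3 was 8.68-fold and CHAC1 2.94-fold lower in SK-MEL-28 on these arrays. The other ATF3 probe sets differed by only -1.09 and -0.15 there, the second of these below the level minimum. VLDLR thus went from 2.26-fold above A375 under control siRNA to 2.32-fold below it. In the same limma fit the line difference called 27.7% of all genes, and 2 of the 10. These were CEBPB, higher in SK-MEL-28 by 0.79 (SE 0.18, limma adjusted p 0.0479), and ATF3, lower by a difference of -2.19 (SE 0.50, limma adjusted p 0.0486). Both calls were lost with no level filter (limma adjusted p 0.0673 and 0.0694) and with eBayes without a trend (0.0647 and 0.0527). The ATF3 call was also lost with the mean of its probe sets (limma adjusted p 0.0644), so it held in 4 of 7 alternatives and that of CEBPB in 6 of 8. Over the alternatives the limma adjusted p ranged from 0.0260 to 0.0673 for CEBPB and from 0.0223 to 0.0694 for ATF3.

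**Figure D3:**
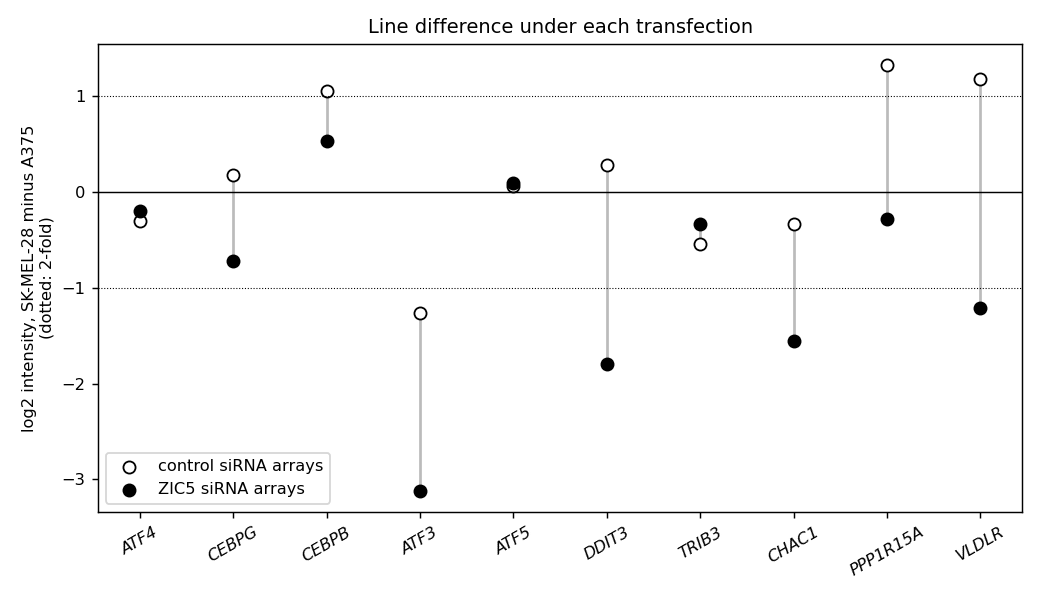
Log2 intensity in SK-MEL-28 minus that in A375 (vertical axis) for each gene (horizontal axis) on the control siRNA arrays (open circles) and on the ZIC5 siRNA arrays (filled circles), 1 array per group. VLDLR moves from 1.17 to -1.22 and PPP1R15A from 1.32 to -0.28, while the ATF4 and ATF5 circles nearly coincide.

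Genes around the 10 were read from 6 lists. For each list the limma fit called 0 genes at an adjusted p under 0.05, so the values below are counts and sizes. For the genes named below the limma adjusted p was between 0.268 and 0.870 on the brightest probe sets. Other ATF4 targets lay mostly on the high side: of 33 analysed, 31 were higher in each line and 30 in both, where 31.5% of all genes were higher and 32.5% lower in both. By 2-fold, 18 were higher in A375, 12 in SK-MEL-28 and 9 in both, beside 3.89%, 0.776% and 0.312% of all genes. The list median was 1.16 (A375) and 0.73 (SK-MEL-28), and 24 of the 33 had a limma unadjusted p under 0.05, all higher, beside 5.91% of all genes. ASNS, which makes asparagine, differed by 2.53 and 3.14, and CTH, which makes cysteine, by 3.43 and 1.40. The stress-induced mTORC1 inhibitors SESN3 and SESN2 differed by 3.67 and 1.87 and by 3.32 and 1.41. On its other probe set SESN3 differed by 2.09 and 1.67. This list was drawn up with earlier results on many of its genes known and is no independent evidence of their direction.

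**Figure D4:**
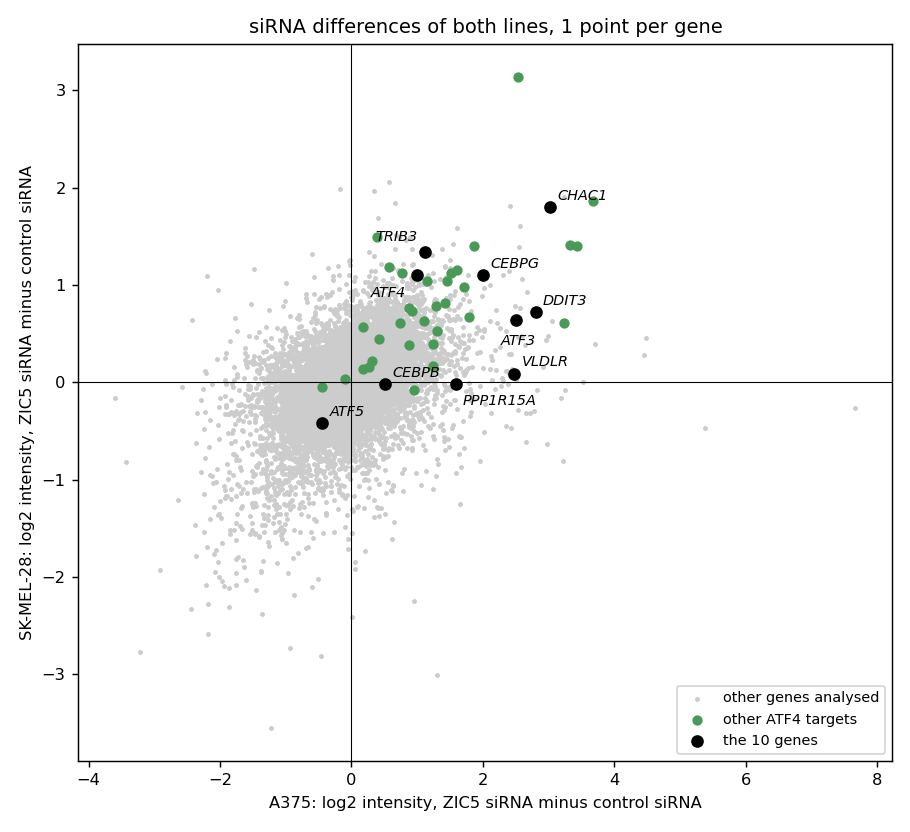
siRNA difference in A375 (horizontal axis) against that in SK-MEL-28 (vertical axis), both log2 intensity with ZIC5 siRNA minus control siRNA, for all 13794 genes analysed (grey), other ATF4 targets (green) and the 10 genes (black). CHAC1 lies at 3.02 and 1.80, PPP1R15A and VLDLR lie near 0 on the vertical axis, and ATF5 lies below 0 on both axes.

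The machinery upstream of ATF4 showed mostly small differences on the brightest probe set of each gene. The list of 22 genes holds the eIF2 kinases, eIF2, its exchange factor eIF2B, the phosphatase subunits, GCN1, IMPACT, DNAJC3, OMA1, DELE1 and EIF2A. Of the 22 genes, 7 were higher and 11 lower in both lines, beside 31.5% and 32.5% of all genes. The list medians were -0.04 and -0.17. On the brightest probe sets none differed by 2-fold in A375, and in SK-MEL-28 only EIF2S2, the beta subunit of eIF2, did (-1.11, against -0.49 in A375). The other EIF2S2 probe set had the larger difference in A375, -1.21 against -0.67. Other probe sets also passed 2-fold in A375 for EIF2AK2 (-1.58), PPP1CB (-1.28), DELE1 (-1.01) and DNAJC3 (1.497), genes named after their values were seen. EIF2AK4, the kinase GCN2 that senses uncharged tRNA, differed by -0.72 and -0.56, and its inhibitor IMPACT by -0.50 and -0.25. The catalytic phosphatase subunit PPP1CC differed by -0.74 and -0.25. The kinases act through phosphorylation, which transcript levels do not report.

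Among 21 paralogs and leucine zipper partners of the 10 genes, 10 were higher and 4 lower in both lines (31.5% and 32.5% of all genes), with medians of 0.18 and 0.08. CHAC2, the sister enzyme of CHAC1, differed by -1.41 in A375 against 0.12 in SK-MEL-28, while CHAC1 was higher in both. CEBPD, a C/EBP activator like CEBPB, differed by -0.69 and -0.45. FOS, an immediate early factor, differed by 2.45 and 0.14, and the large Maf factor MAF by 0.88 and 0.64. Among the 3 MAF probe sets the lowest SK-MEL-28 difference was 0.08.

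The XBP1 and ATF6 arms of the unfolded protein response are the other branches that sense unfolded protein. Of 20 genes, 4 were higher and 12 lower in both lines (31.5% and 32.5% of all genes), with medians of -0.02 and -0.28. The kinase and nuclease ERN1 differed by 2.30 in A375 against 0.01 in SK-MEL-28, with 0.13 in A375 on the lowest of its 3 probe sets, and the co-chaperone DNAJB9 by 1.17 and 0.26. MBTPS2, a protease that releases ATF6, differed by -1.06 and -1.62 (-0.50 and -0.55 on its other probe set), and the secreted stress protein MANF by -0.52 and -0.79. HSPA5, the chaperone BiP, and XBP1 itself were added after their values were seen. HSPA5 differed by 0.10 and -0.32 on its brighter probe set but by -1.18 and -1.20 on the other, and XBP1 by 1.002 and 0.16.

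Of 14 death and stress effectors linked to DDIT3, 8 were higher and 4 lower in both lines (31.5% and 32.5% of all genes), with list medians of 0.61 (A375) and 0.13 (SK-MEL-28). The pro-death BCL2 family member BID differed by -1.11 and -1.28, and the pro-survival member MCL1 by 1.02 and 0.44, with 0.13 and 0.01 as the lowest values among its 5 probe sets. TXNIP, which binds thioredoxin, differed by 1.73 and 0.34, and the stress sensor GADD45B by 1.07 and 0.61. Among 12 regulators of ATF4 protein and of mTORC1, 5 were higher and 3 lower in both lines, near the shares of all genes (31.5% and 32.5%), with medians of 0.00 and 0.07. FBXW11, a subunit of the ligase that marks ATF4 for destruction, differed by -0.50 and -0.46 on its brighter probe set but by 0.17 and -0.07 on the other. The mTORC1 inhibitors AKT1S1, TSC2 and TSC1 differed by 0.41 and 0.89, by 0.76 and 0.22, and by 0.68 and 0.19.

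**Figure D5:**
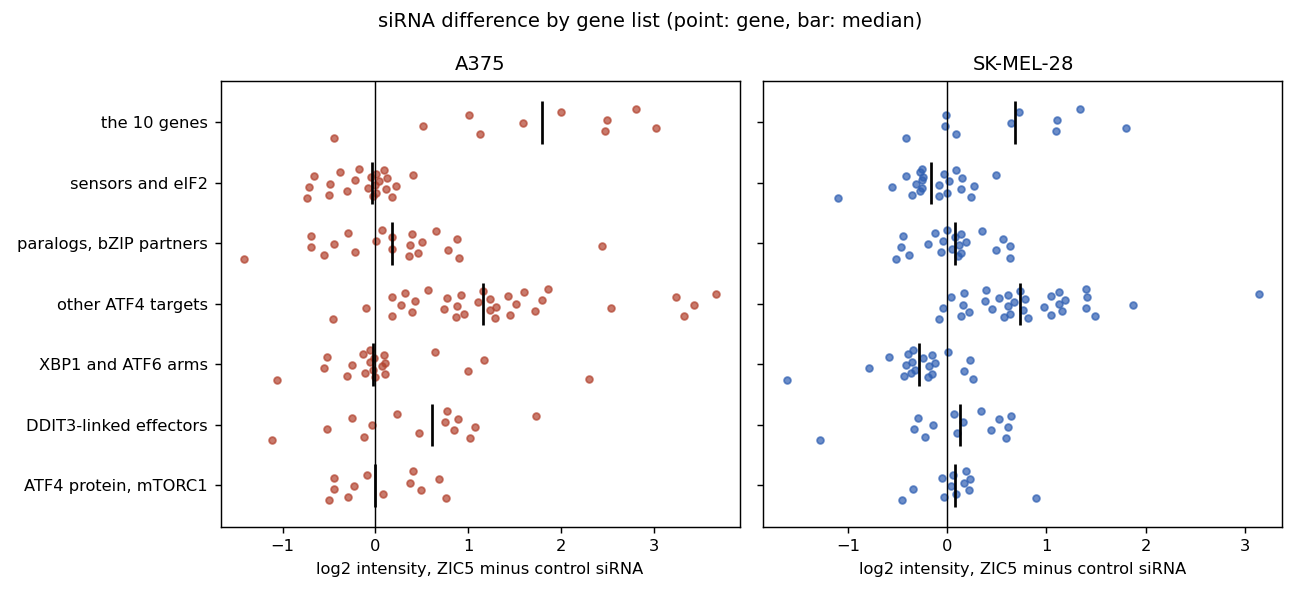
siRNA difference (horizontal axis, log2 intensity with ZIC5 siRNA minus control siRNA) of each analysed gene by list (vertical axis) in A375 (left) and SK-MEL-28 (right), with a bar at the list median. In A375 the medians of the 10 genes and of the other ATF4 targets are 1.79 and 1.16 and those of the remaining lists are at most 0.61, and the XBP1 and ATF6 list has a median of -0.28 in SK-MEL-28.

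The genes most like 4 of the members over the 4 arrays were found by the Euclidean distance between log2 profiles, each centred on its own mean. Closest to ATF4 were ACYP2 at a distance of 0.04, ARHGEF3 at 0.13 and YPEL2 at 0.14. Closest to TRIB3 were PI4K2A at 0.19, the glycyl-tRNA synthetase GARS1 at 0.21 and AUH at 0.25. DDIT3 and CHAC1 had more distant neighbours: GEM, LURAP1L and CYP1A1 at 0.29 to 0.50 for DDIT3, and AMMECR1, KDM7A and CYP1A1 at 0.71 to 0.85 for CHAC1. With 4 arrays this is a description of the profiles only.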

How the data were processed

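For each of 4 arrays the authors deposited an intensity for every probe set. The submitters' processing notes name RMA and Affymetrix Expression Console. Versions and the background and summary settings are not given in the sources used here. RMA sets the arrays to one distribution, so a shift common to most transcripts would not be seen, and its values for dim probe sets are compressed. The values are on a linear scale, and log2 was taken here. Per the labels' protocols, 100 ng of RNA gave the biotinylated cRNA. The number of arrays, not a depth, limits the precision.

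Of 54613 probe sets, 41091 named 1 gene in the platform annotation given with the data, 1801 named several and were not used, and 11721 had no name in that table. Through entrez IDs 41037 matched the RefSeq table of GRCh38.p14, with 0 symbols changed. Each gene was represented by its probe set with the highest mean, and 13794 of 19775 genes had a mean log2 intensity of at least 5. Effects of siRNA and of line were estimated in an additive model (limma 3.58.1, lmFit and eBayes with trend, R 4.3.3) with 1 residual degree of freedom per gene, adjusted over all genes. An interaction could not be fitted. The fit was tested on simulated data.

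The members and lists were chosen with earlier results of these data known. The rule for named genes took the 10 members, ZIC5, the 3 nearest profiles to each of 4 members and the 4 genes of each list with the largest mean siRNA difference. Alternatives were no level filter, a minimum of 7, a floor at 5, quantile, loess and median normalization, the mean of all probe sets, probe sets in place of genes, and eBayes without a trend. Samples were grouped by the labels alone.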

Additional observations from a re-analysis of the deposited data

Results flagged for a closer look

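CEBPB and PPP1R15A had siRNA differences of opposite sign in the lines. CEBPB differed by 0.510 in A375 against -0.0198 in SK-MEL-28. PPP1R15A differed by 1.59 in A375 against -0.0126 in SK-MEL-28. With 1 array per group the difference between the lines was not tested. The SK-MEL-28 values are close to 0, and for PPP1R15A the second probe set (0.08) and centring each array on its median (0.00) turned that sign. The A375 difference was at percentile 98.9 of all genes analysed for PPP1R15A but at 85.4 for CEBPB.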

How the results depend on the processing

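The count of members at least 2-fold higher was 8 in A375 and stayed between 7 and 8 under the 7 alternatives run for it, and it was 4 in SK-MEL-28 and stayed between 3 and 4. ATF4 fell short in A375 after quantile normalization (0.98) and CEBPG in SK-MEL-28 with the mean of its probe sets (0.81), and ATF3 was below the minimum of 7. The siRNA effect called 0 genes in limma under each of 9 alternatives, with 1471 to 2095 genes at an unadjusted p under 0.05 in the 8 of them fitted on genes. The line difference called 3816 genes and 3309 to 4450 under those 8, but 7268 of 30429 when probe sets took the place of genes, where more features were tested. Counts under the alternatives have different totals and do not compare as shares. The 1471 and the 3309 were of 8605 genes, with the minimum of 7, and the 2095 of 19775, with no level filter. Of 207 values of single members under the alternatives, 200 moved by less than the SD among a gene's probe sets, taken as its median over genes (0.25 in A375 and for the line difference, 0.15 in SK-MEL-28). The other 7 moved by more, all with the mean of all probe sets, in ATF3, ATF5 and CEBPG. Many of the 200 could not move, so their number is no measure of stability. The level filters and the floor left every member difference unchanged, and could alter the member counts only by dropping a gene, as with ATF3. For ATF4, DDIT3, CHAC1, CEBPB and VLDLR, with a single probe set each, the mean of all probe sets changed nothing either.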
